A study of Mus musculus with 21 samples.

Results

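The 9 genes described here encode receptors and receptor ligands that T cells carry at their surface for costimulation and adhesion-linked signalling, and they are Cd28, Cd2, Cd27, Cd40lg, Cd48, Cd96, Cd226, Btla and Slamf6. They were chosen by name, with earlier results of these data known. They are the rows of the deposited expression table with these gene names, and they make up 9 of its 12994 genes. The table holds T cells sorted from the spleen of female C57BL6/J mice that lived in an enriched environment (EE) or a standard environment (SE). EE mice were placed at 4 weeks of age for 4 weeks in large cages of 12 to 15 animals with toys, wheels and shelters, and SE mice were kept 5 to 6 to a cage without objects. There were 6 EE and 5 SE samples of CD4+ T cells, and 6 EE and 4 SE samples of CD8+ T cells, each from 1 mouse, and 9 mice gave both. The labels name no transgene, deletion or drug treatment in any group. The labels state that the mice analysed from an environment shared a cage, and an effect of the cage cannot be told apart from one of the housing.

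T cells need a second signal beside their antigen receptor, and the Ig-family receptor CD28, which binds CD80 and CD86 on antigen-presenting cells, is the classical source of it. Receptors of the tumour necrosis factor family (CD27) and their relatives among the ligands (CD40 ligand), the CD2 and SLAM families (CD2, CD48, SLAMF6) and the nectin-binding receptors (CD226, CD96) tune this signal and the contact with the partner cell. BTLA works in the opposite direction as an inhibitory receptor.

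Molecules carried a unique molecular identifier, a random tag that lets copies of 1 molecule be counted once, and the values given are normalized counts, that is molecules divided by the size factor of the sample. Samples held 145546 to 221454 molecules (median 182470), and 1 molecule was worth 0.791 to 1.26 normalized counts. Cd4 was at 58.4 ± 12.0 (SD, n = 11) in CD4+ samples against 0.374 ± 0.484 (SD, n = 10) in CD8+ samples, and Cd8a at 0.784 ± 1.06 against 98.4 ± 14.5, in the direction of the labels. B-cell marker RNA was not even across the samples. Of 14 listed B-cell markers 10 were tested and 8 were higher in CD4+ samples, and their summed normalized count was 41.2 to 507 in CD4+ samples and 35.0 to 118.5 in CD8+ samples, where the defining markers Ms4a1 and Blk were at 0. Other listed markers were present in CD8+ samples, among them Ighm at 37.8 ± 8.61 and Cd79b at 5.92 ± 3.29 (SD, n = 10 for both) and Cd74 at up to 34.4. The sum over 5 red-cell genes was 580.5 in CD8+ EE replicate 6 and 1033 in CD8+ SE replicate 3, and at most 26.7 in every other sample. The calls between populations and the differences between EE and SE in CD8+ samples rest in part on these 2 libraries. Both are also given without the 2 libraries, a choice made after the values were seen. In sorted pools such as these, fewer cells of a type and less RNA per cell cannot be told apart. Nothing in the labels says how the mice of a group were related, so p-values measure the spread between these samples.

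**Figure D1:**
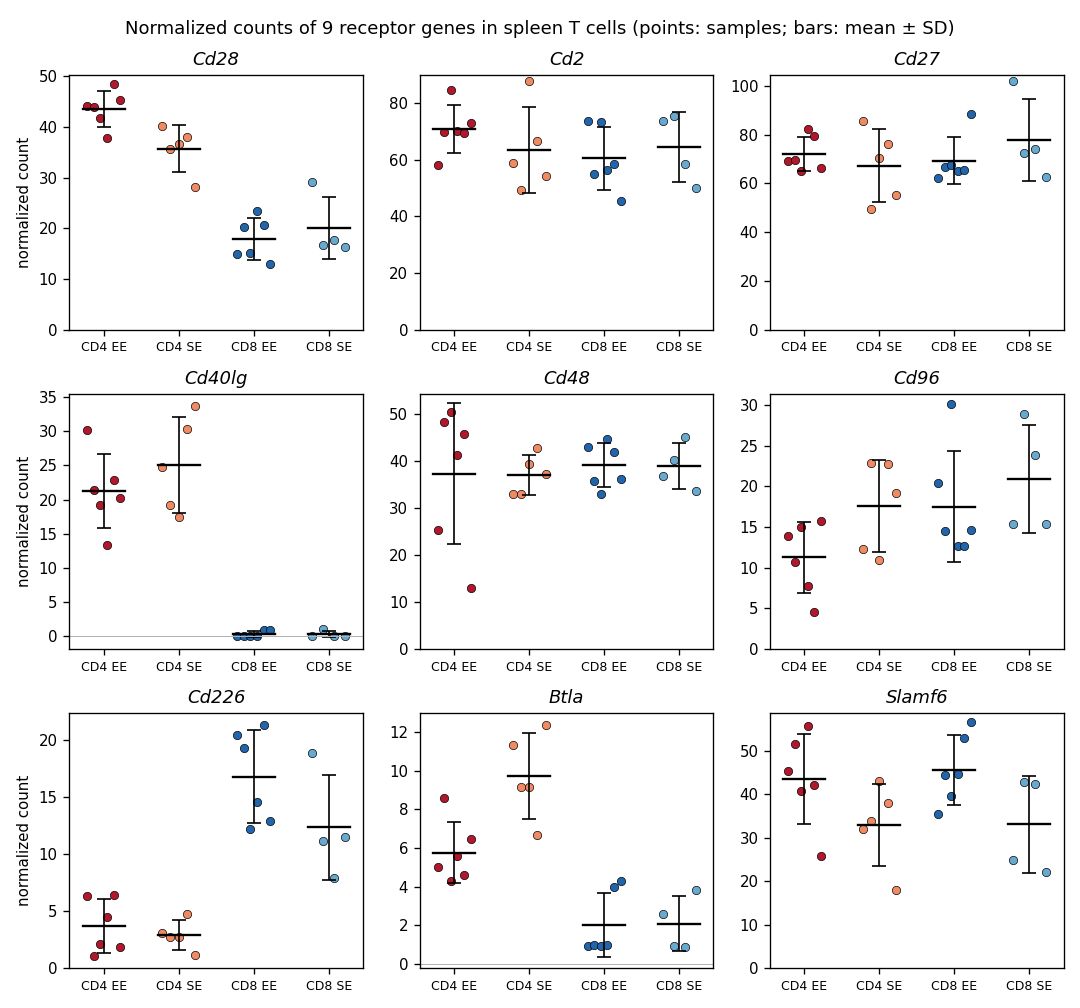
Normalized counts (vertical axes, each on its own scale that includes 0) of the 9 genes in the 4 groups (horizontal axes), with 1 point per sample and black bars for the mean ± SD. Cd28, Cd40lg and Btla sat higher in CD4+ samples and Cd226 higher in CD8+ samples. Only for Cd40lg and Cd226 did no CD4+ point overlap a CD8+ point. Those of Cd28 and Btla crossed at their edges, and the points of the other genes overlapped across the groups.

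The first comparison asked which of these genes differ between CD4+ and CD8+ T cells, over all 21 samples and with equal weight to each environment. Cd28, Cd40lg and Btla were higher in CD4+ T cells and Cd226 was higher in CD8+ T cells. Cd2, Cd27, Cd48, Cd96 and Slamf6 did not pass the test. The adjusted p in limma was under 0.05 for 4 of 9 genes, against 4.4% of all 7938 genes tested. Since the 9 genes were chosen with earlier results of these data known, this share and those that follow are a description only. The 3 genes higher in CD4+ cells stand beside a background of 2.33% and the 1 gene higher in CD8+ cells beside 2.07%. In 2 of the 9, Cd40lg and Cd226, no CD4+ sample overlapped a CD8+ sample, which was the case for 0.869% of all genes. Only genes with a mean above 2 over all samples were tested. Cd40lg, at a mean of 0.258 in CD8+ samples, reached it only through CD4+ samples. The filter thus favoured its place in these counts, which limits what they show. The median log2 difference, CD4+ minus CD8+, was -0.042 over the 9 genes and -0.0073 over all genes tested.

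Cd28 (ENSMUSG00000026012, chromosome 1 of GRCm38 from 60716800 to 60773359, plus strand) was measured in every sample with at least 15 molecules. In CD4+ EE samples its normalized count ran from 37.9 over a median of 44.0 to 48.5. In CD4+ SE samples it was 40.2, 35.7, 36.6, 38.0 and 28.2. In CD8+ EE samples it ran from 12.9 over 17.7 to 23.3, and in CD8+ SE samples it was 29.1, 16.8, 17.7 and 16.3. A single CD8+ SE sample, replicate 1 at 29.1, reached above the lowest CD4+ sample at 28.2, and all others lay apart. The mean was 40.0 ± 5.59 (SD, n = 11) in CD4+ and 18.7 ± 4.81 (SD, n = 10) in CD8+ samples, 2.14 times as high. On the log2(normalized count + 1) scale, used for all log2 differences and which understates the change of low genes, the difference was 1.05 (standard error 0.15, 95% interval 0.76 to 1.34, adjusted p = 1.16e-07 in limma). Within EE samples the difference was 1.27 (adjusted p = 1.93e-06 in limma) and within SE samples 0.84, where it no longer passed (adjusted p = 0.0559 in limma).

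Cd40lg (ENSMUSG00000031132, chromosome X from 57212143 to 57224042, plus strand) encodes CD40 ligand, through which helper T cells license B cells and dendritic cells. Its normalized count ran from 13.4 over a median of 20.9 to 30.2 in CD4+ EE samples and was 24.7, 19.2, 17.4, 30.4 and 33.8 in CD4+ SE samples. CD8+ samples held 0 or 1 molecule each, with 1 molecule in 2 of 6 EE samples and in 1 of 4 SE samples. Every CD4+ sample therefore lay above every CD8+ sample. Pooled over samples there were 247 molecules in CD4+ and 3 in CD8+ samples, a ratio of 83.9 at equal depth with a 95% counting interval of 28.4 to 409.8, which covers counting error only. The fitted log2 difference was 4.287 (standard error 0.29, adjusted p = 2.25e-19 in limma) and depends on the pseudocount, since the CD8+ samples were under the floor of 3 molecules.

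Btla (ENSMUSG00000052013, chromosome 16 from 45224315 to 45257670, plus strand) encodes the inhibitory receptor BTLA, whose ligand is the tumour necrosis factor receptor family member HVEM. Its normalized count ran from 4.28 over a median of 5.30 to 8.581 in CD4+ EE samples and was 11.3, 9.15, 9.14, 6.65 and 12.4 in CD4+ SE samples. In CD8+ EE samples it ran from 0.930 over 0.969 to 4.294, and in CD8+ SE samples it was 2.57, 0.931, 0.883 and 3.85. The lowest CD4+ sample, at 4.28, fell just under the highest CD8+ sample, at 4.294, and these were the only samples that crossed. The mean was 7.56 ± 2.75 (SD, n = 11) against 2.03 ± 1.48 (SD, n = 10), with at most 11 molecules in a CD4+ sample, and 7 of 10 CD8+ samples were at or under the floor of 3 molecules. The log2 difference was 1.60 (standard error 0.31, 95% interval 0.97 to 2.23, adjusted p = 2.19e-04 in limma). Within SE samples it was 1.90 (adjusted p = 0.0111 in limma), and within EE samples 1.296, short of the threshold (adjusted p = 0.0998 in limma).

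Btla is also a gene of B cells, and B-cell marker RNA was higher in most CD4+ samples. CD4+ SE replicate 1 had a summed B-cell marker count of 41.2, inside the range of the CD8+ samples, and its Btla level of 11.3 was among the highest. Of the CD8+ samples, EE replicate 6 had both the highest B-cell marker sum, 118.5, and the highest Btla level, 4.294. The study's sort for CD45+ CD11b- CD3+ cells that carry CD4 or CD8 would remove B cells. Over the samples as a whole, the part of B-cell RNA in the Btla difference was not tested.

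**Figure D2:**
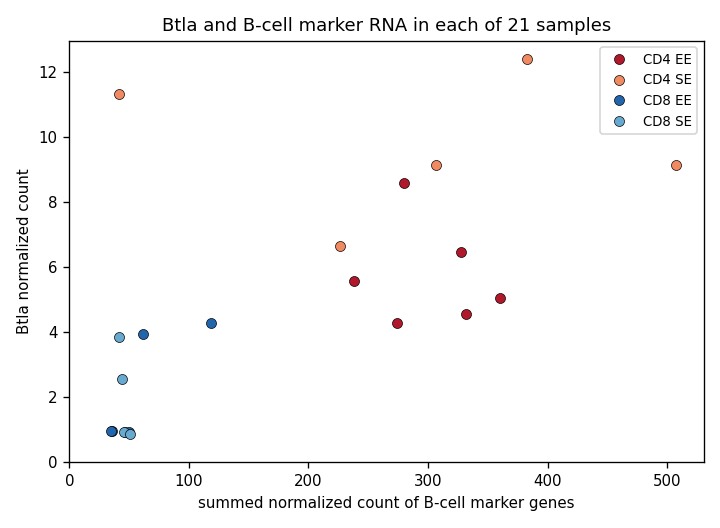
Btla normalized count (vertical axis) against the summed normalized count of 14 B-cell marker genes (horizontal axis) in each of the 21 samples, coloured by group. CD4+ SE replicate 1 sat at a marker sum of 41.2 and a Btla level of 11.3, while CD8+ samples with like sums had Btla levels of at most 3.95.

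Cd226 (ENSMUSG00000034028, chromosome 18 from 89176967 to 89272229, plus strand) encodes DNAM-1, an activating receptor for the nectin-family ligands CD155 and CD112 that cytotoxic cells use. In CD8+ EE samples its normalized count ran from 12.2 over a median of 16.9 to 21.3, and in CD8+ SE samples it was 18.8, 11.2, 7.95 and 11.5. In CD4+ EE samples it ran from 1.07 over 3.30 to 6.40, and in CD4+ SE samples it was 3.09, 2.75, 2.74, 4.75 and 1.13. The highest CD4+ sample, at 6.40, was below the lowest CD8+ sample, at 7.95. The mean was 15.0 ± 4.62 (SD, n = 10) in CD8+ and 3.33 ± 1.89 (SD, n = 11) in CD4+ samples, 4.51 times as high, although 7 of 11 CD4+ samples were at or under 3 molecules. The log2 difference, CD4+ minus CD8+, was -1.92 (standard error 0.27, 95% interval -2.46 to -1.38, adjusted p = 2.02e-07 in limma). It was -2.05 within EE samples and -1.79 within SE samples, and it passed in both. Without the 2 libraries of high red-cell RNA the log2 difference was 0.99 for Cd28, 4.31 for Cd40lg, 1.60 for Btla and -2.04 for Cd226, and each of the 4 still passed in limma.

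Cd96 (ENSMUSG00000022657, chromosome 16 from 46035657 to 46120251, minus strand) encodes another receptor for CD155. Its mean normalized count was 14.2 ± 5.80 (SD, n = 11) in CD4+ and 18.8 ± 6.60 (SD, n = 10) in CD8+ samples, with a log2 difference of -0.43 (95% interval -0.84 to -0.021) that had an unadjusted p of 0.0398 and did not pass after adjustment (adjusted p = 0.302 in limma). Of the pair of CD155 receptors in the list, only Cd226 passed the test, and the difference between the 2 genes was not tested.

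Btla and Cd96 both lie on chromosome 16, 778 kb apart. RefSeq windows from 250 bases before to 50 after the gene start were matched for 5 of the 9 genes (Btla, Cd96, Cd48, Slamf6 and Cd27), and not for Cd28, Cd2, Cd40lg and Cd226. The letters TGTGGT, the core of the sites bound by RUNX factors, which shape the CD8+ lineage, were searched on both strands. They occurred once each in the windows of Btla and Cd48, at 2 places in that of Cd96, and at 0 in those of Slamf6 and Cd27, where 16.8% of 32851 windows of this length hold them at least once. The letters AGGAAG, the core of sites of ETS factors, and the E-box letters CANNTG were searched in the same way and occur in 35.4% and 72.3% of the windows. AGGAAG was found at 2 places in the window of Btla, at 1 in that of Cd48 and at 0 in those of Cd96, Slamf6 and Cd27, and CANNTG at 2 in Btla, 5 in Cd27, 1 each in Cd48 and Slamf6 and 0 in Cd96. The windows of the 2 chromosome 16 genes, 5′ to 3′ on the strand of the gene and with the TGTGGT matches in capitals (ACCACA is TGTGGT on the other strand), are shown because Btla passed the test between populations and Cd96 did not. They lie on GRCm38.p6 at chr16:45224087-45224386 (plus strand) and chr16:46120199-46120498 (minus strand).
Btla: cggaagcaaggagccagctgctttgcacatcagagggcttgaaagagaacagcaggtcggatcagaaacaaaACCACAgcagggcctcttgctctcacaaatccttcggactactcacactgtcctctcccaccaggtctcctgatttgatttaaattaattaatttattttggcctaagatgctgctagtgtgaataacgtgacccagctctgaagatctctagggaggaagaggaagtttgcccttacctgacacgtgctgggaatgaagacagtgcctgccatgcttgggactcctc
Cd96: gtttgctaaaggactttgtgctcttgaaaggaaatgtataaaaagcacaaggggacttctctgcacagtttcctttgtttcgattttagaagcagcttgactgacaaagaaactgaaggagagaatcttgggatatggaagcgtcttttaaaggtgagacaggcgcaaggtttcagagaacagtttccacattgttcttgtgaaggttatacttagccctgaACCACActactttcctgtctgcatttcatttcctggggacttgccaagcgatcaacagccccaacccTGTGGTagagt
The letters are a description of these windows and give no evidence of binding.

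Cd27 and the genes of the CD2 and SLAM families did not pass the test between populations. Cd2 (ENSMUSG00000027863, chromosome 3), the adhesion receptor that binds CD48 in mice, had a mean normalized count of 67.4 ± 11.9 (SD, n = 11) in CD4+ and 62.0 ± 11.1 (SD, n = 10) in CD8+ samples. The log2 difference was 0.10 with a 95% interval of -0.12 to 0.33. Cd48 (ENSMUSG00000015355, chromosome 1), its ligand, had 37.1 ± 10.9 and 39.0 ± 4.50, with a difference of -0.13 and an interval of -0.43 to 0.18. Slamf6 (ENSMUSG00000015314, chromosome 1, 212 kb from Cd48), a self-binding receptor that signals through the adaptor SAP, had 38.7 ± 10.9 and 40.6 ± 10.9, with a difference of -0.042 and an interval of -0.34 to 0.25. Cd27 (ENSMUSG00000030336, chromosome 6), the receptor for CD70, had 69.9 ± 11.0 and 72.7 ± 12.9, with a difference of -0.076 and an interval of -0.29 to 0.14. Each of these intervals excludes a log2 difference as large as that of Cd28, while smaller differences remain within them.

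Of the 9 mice with both populations, Cd28, Cd40lg and Btla were higher in the CD4+ sample of 9 of 9, and Cd226 was higher in the CD8+ sample of 9 of 9. The smallest within-mouse log2 difference was 0.45 for Cd28, 3.52 for Cd40lg, 0.17 for Btla and, in the other direction, -1.26 for Cd226. Cd96 was higher in the CD8+ sample of 7 mice, Cd2 in that of 3, Cd27 and Cd48 in that of 5 each and Slamf6 in that of 4. The directions of the 4 genes that passed were thus the same in each mouse, which was not so for the other 5. The samples of these mice were among those that picked the 4 genes, so the counts restate the test by mouse and are no separate support. For Cd40lg and Cd226, whose CD4+ and CD8+ samples did not overlap, 9 of 9 followed from that alone.

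**Figure D3:**
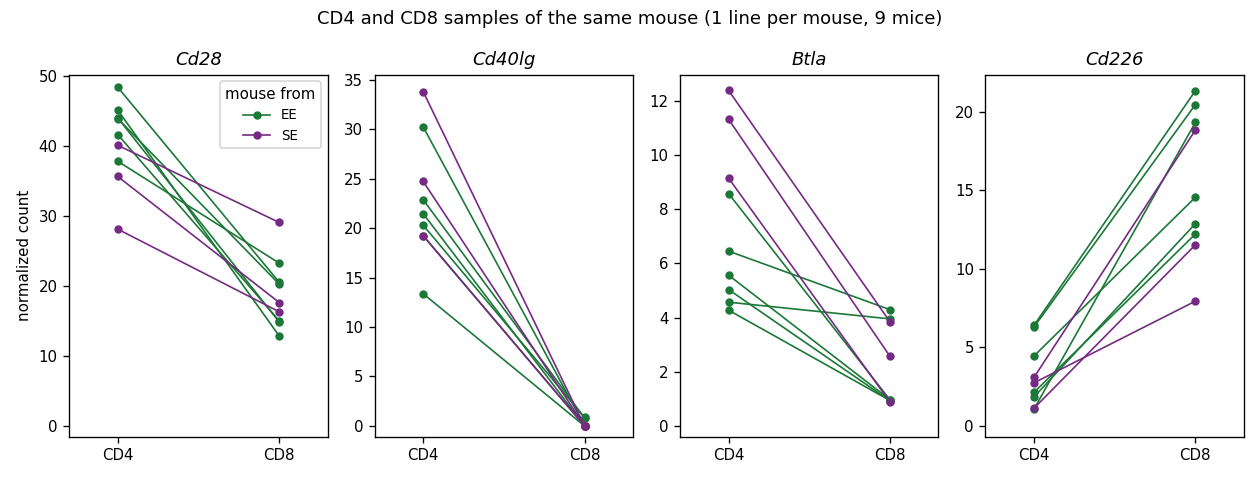
Normalized counts (vertical axes) of the 4 genes that passed the test in the CD4+ and CD8+ sample of the same mouse (horizontal axes), with 1 line for each of 9 mice, green for EE and purple for SE. Every line falls from CD4+ to CD8+ for Cd28, Cd40lg and Btla and rises for Cd226, and the flattest Btla line spans a log2 difference of 0.17.

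Whether a mouse with a high level in one population also had one in the other was tested over these 9 mice, on deviations from the mean of the environment. Pearson's r ranged from -0.045 to 0.66 over the 9 genes and none passed after adjustment over the 9 relations (smallest adjusted p = 0.733, exact two-sided permutation test over 4320 arrangements). The highest was that of Cd96, with r = 0.656 (exact permutation p = 0.0815) and Spearman's rho = 0.767 (exact permutation p = 0.0343, adjusted p = 0.308). Without the 2 mice farthest from the median in CD4+ samples, r for Cd96 was 0.646 and no longer the highest, since that of Cd28 moved from 0.307 to 0.707 and that of Cd226 from 0.348 to 0.665, while that of Cd27 moved from 0.464 to -0.067. The values of these 3 genes thus depended on those mice.

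The other genes of these pathways differed between the populations as follows, with counts over lists chosen with earlier results of these data known. Of 22 other costimulatory and inhibitory receptors, 19 were in the table, 13 were tested, 5 were higher in CD4+ samples and 1 was lower, beside 2.33% and 2.07% of all genes. The 5 were Cd5 and Cd6, which encode scavenger-family modulators of antigen receptor signalling, and Ctla4, Tigit and Cd200. Cd5 was at 74.3 ± 12.0 (SD, n = 11) and 32.3 ± 5.96 (SD, n = 10), a log2 difference of 1.20 (standard error 0.12, adjusted p = 6.25e-12 in limma). Ctla4, which competes with CD28 for the same ligands, was at 7.82 ± 4.03 and 0.372 ± 0.481, a difference of 2.64 (standard error 0.35, adjusted p = 4.78e-08 in limma). Tigit, the inhibitory counterpart of CD226 at CD155, was detected in 9 of 11 CD4+ samples and in 2 of 10 CD8+ samples, with at most 11 and 1 molecules, a difference of 1.73 (adjusted p = 0.00431 in limma). Ctla4 and Tigit are also genes of regulatory T cells, whose 4 listed markers summed to 0.95 to 39.7 in CD4+ and 0.883 to 9.71 in CD8+ samples, with Il2ra at 0 in CD8+ samples. The part of such cells in these differences was not tested. The gene that was lower was Crtam, an adhesion receptor of activated cytotoxic cells, at 0.543 ± 1.17 and 4.37 ± 2.50. Only genes with a mean above 2 over all samples were tested. Ctla4, Tigit, Cd200 and Crtam reached it only through the population where they were higher. The filter thus favoured genes that differ, which limits what these counts show.

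Of 13 ligands of these receptors 8 were in the table, 2 were tested and 1 was higher in CD4+ samples, beside 2.33% of all genes. That was Pvr, which encodes CD155, the shared ligand of CD226, CD96 and TIGIT, at 4.58 ± 3.01 (SD, n = 11) against 0.697 ± 0.685 (SD, n = 10), a log2 difference of 1.51 (standard error 0.37, adjusted p = 0.00594 in limma). Cd226 and Pvr thus passed the test in opposite directions. Of 22 signalling genes, all were tested, 1 was higher and 1 was lower in CD4+ samples, which is 1 gene each beside the same 2.33% and 2.07% of all genes. Fyn, a kinase of the Src family that acts with SAP, was at 56.2 ± 6.61 against 39.3 ± 6.11, a log2 difference of 0.52 (adjusted p = 0.00191 in limma). Pik3cd, the catalytic subunit of the lymphocyte phosphoinositide 3-kinase downstream of CD28, was at 60.9 ± 11.0 against 80.3 ± 9.84, a difference of -0.41 (adjusted p = 0.0136 in limma). The median log2 difference was 0.71 over the 13 receptors, 0.78 over the 2 ligands and 0.13 over the 22 signalling genes, beside -0.0073 over all genes tested. Pvr, like the 4 receptor genes named above, was tested only because of its level in the higher population. The medians over receptors and ligands are therefore shaped by the filter and are a description only.

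The second comparison asked whether these genes differ between EE and SE within each population. In CD4+ T cells 0 of 9 genes passed in limma, where 0.0126% of 7939 genes did, and 0 passed in edgeR and DESeq2. At an unadjusted p under 0.05 there was 1 of 9, Cd96, against 5.82% of all genes, and in 0 of 9 did the EE and SE samples lie apart, against 0.453%. In CD8+ T cells 8 genes were tested, since the mean of Cd40lg was under 2, and 0 of 8 passed in limma, beside 0% of 7840 genes, or in edgeR and DESeq2. At an unadjusted p there was 1 of 8, Slamf6, against 5.27%, and in 0 of 8 did the samples lie apart, against 1.06%. The shares at an unadjusted p are thus 1 gene each beside backgrounds of this size. The median log2 difference, EE minus SE, was 0.12 in CD4+ and -0.078 in CD8+ samples over the genes tested, and 0.0012 and -0.0078 over all genes.

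Slamf6 was the gene with the smallest p in CD8+ cells. Its normalized count in CD8+ EE samples ran from 35.3 over a median of 44.6 to 56.7, and in CD8+ SE samples it was 24.8, 42.8, 42.4 and 22.1. The lower pair of SE samples lay below every EE sample and the upper pair lay among them. The log2 difference was 0.50 (standard error 0.19, 95% interval 0.11 to 0.88, unadjusted p = 0.0129 and adjusted p = 0.897 in limma). Without the 2 libraries of high red-cell RNA it was 0.57. In CD4+ EE samples Slamf6 ran from 25.8 over 43.7 to 55.7, and in CD4+ SE samples it was 31.9, 33.9, 43.0, 38.0 and 18.0. There the difference was 0.41 (95% interval -0.012 to 0.82, unadjusted p = 0.0566 and adjusted p = 0.835 in limma), with overlapping samples. Without CD4+ SE replicate 6 it was 0.21, and in CD8+ cells without SE replicate 6 of that population it was 0.33.

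Cd96 was the gene with the smallest p in CD4+ cells. Its normalized count in CD4+ EE samples ran from 4.57 over a median of 12.3 to 15.7, and in CD4+ SE samples it was 12.4, 22.9, 11.0, 22.8 and 19.1. The 3 upper SE samples lay above every EE sample. The log2 difference was -0.64 (standard error 0.30, 95% interval -1.25 to -0.035, unadjusted p = 0.0385 and adjusted p = 0.835 in limma). The CD8+ EE samples had a mean Cd96 of 17.5 ± 6.81 (SD, n = 6) and the CD8+ SE samples one of 20.9 ± 6.65 (SD, n = 4), a difference of -0.26 with an interval of -0.79 to 0.26.

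Mean Btla was 5.75 ± 1.59 (SD, n = 6) in the CD4+ EE samples and 9.73 ± 2.22 (SD, n = 5) in their SE counterparts. The log2 difference was -0.67 (95% interval -1.38 to 0.035, unadjusted p = 0.0620 and adjusted p = 0.835 in limma). A single EE sample, at 8.581, lay above the lowest SE sample, at 6.65. The B-cell marker sum ran from 238.3 to 360.2 in CD4+ EE and from 41.2 to 507 in CD4+ SE samples, and its part in this value was not tested. In CD8+ samples the 2 Btla means were 2.01 ± 1.64 and 2.06 ± 1.43, and the interval of the difference ran from -1.20 to 1.07.

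Mean Cd28 was 43.5 ± 3.55 (SD, n = 6) in the CD4+ EE samples and 35.7 ± 4.55 (SD, n = 5) in the CD4+ SE samples, a log2 difference of 0.28 with an interval of -0.077 to 0.65, and in CD8+ samples the difference was -0.14, with an interval of -0.64 to 0.35. Cd226 differed by 0.18 in CD4+ samples (interval -0.82 to 1.18), where it had few molecules, and by 0.44 in CD8+ samples (interval -0.11 to 0.99). Cd2, Cd27, Cd40lg and Cd48 differed by -0.23 to 0.18 in CD4+ samples, and Cd2, Cd27 and Cd48 by -0.15 to 0.0040 in CD8+ samples. Without the 2 libraries of high red-cell RNA, the CD8+ difference was 0.33 for Cd226, -0.15 for Cd96 and -0.11 for Cd28. It was -0.24 for Cd27, -0.054 for Cd2 and 0.096 for Cd48, and none passed in limma. Btla was not tested in that fit. No difference between EE and SE was thus detected for the genes tested, and differences inside these intervals remain possible.

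**Figure D4:**
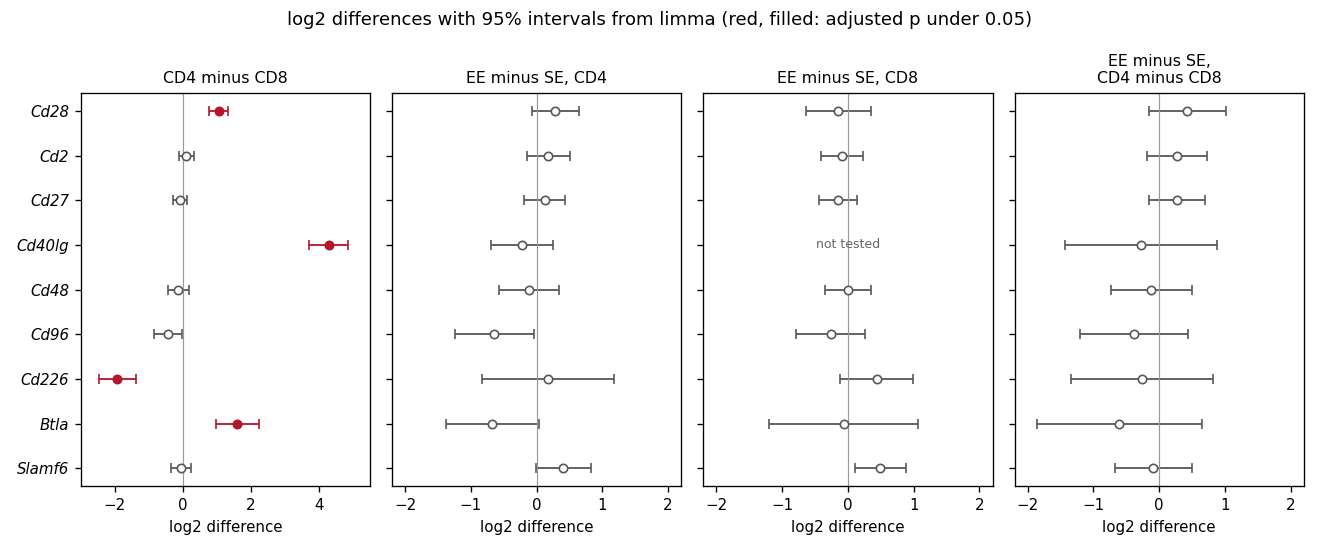
log2 differences (horizontal axes, on the log2(normalized count + 1) scale) of the 9 genes (vertical axis) with 95% intervals from limma, for CD4+ minus CD8+ samples, EE minus SE in CD4+ and in CD8+ samples, and the difference between the last 2. Filled red points passed the adjusted threshold, which were 4 genes in the first panel and 0 in the others, and the first panel has a wider axis.

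Whether the difference between EE and SE itself differed between CD4+ and CD8+ cells was tested as an interaction. In limma 0 of 9 genes passed, beside 0% of 7938 genes, and 0 passed in edgeR and DESeq2. At an unadjusted p there were 0 of 9, against 4.95% of all genes. The differences, CD4+ minus CD8+, ran from -0.61 for Btla (interval -1.86 to 0.64, and -0.22 without the 2 libraries of high red-cell RNA) to 0.43 for Cd28 (interval -0.15 to 1.01), with a median of -0.12 over the 9 genes and 0.0049 over all genes. For Slamf6 the value was -0.090 with an interval of -0.68 to 0.50. For Cd40lg it carries little, since CD8+ samples held at most 1 molecule. In the 3 lists of related receptors, ligands and signalling genes 0 passed within CD4+, within CD8+ or for the interaction in limma, and at an unadjusted p under 0.05 there were 1 of 2 ligands in CD4+ samples, beside 5.82% of all genes, and 3 of 22 signalling genes in CD8+ samples, beside 5.27%.

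Ordered by mean, each gene has 3 neighbouring pairs among the 4 groups, and 6 of these 27 pairs differed by more than the larger of their SDs, beside 4.43% of such pairs over all 7938 genes with a mean above 2. Those were the pair of CD4+ groups and the step from CD4+ SE to CD8+ SE for Cd28, the step from CD4+ EE to CD8+ EE for Cd40lg, the step from CD8+ SE to CD4+ EE for Cd226, and the pair of CD4+ groups and the step from CD4+ EE to CD8+ SE for Btla. The neighbours of Cd2, Cd27, Cd48, Cd96 and Slamf6 did not differ beyond their spread. In 3 of the 27 pairs, 1 each in Cd40lg, Cd226 and Btla, the samples did not overlap, beside 0.558% over all these genes. Cd40lg had a mean above 2 only through its CD4+ samples, so the filter favoured its place in both counts. Since the 4 groups include both populations, the steps between a CD4+ and a CD8+ group repeat the comparison of CD4+ with CD8+ cells. The pairs of CD4+ groups, for Cd28 and Btla, are steps between EE and SE, where neither gene passed the test.

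The genes also varied unequally among samples of a group. The dispersion index, the variance of the molecule counts within groups relative to that of counting alone, was 0.888 for Cd28, 0.862 for Btla, 1.22 for Cd40lg and 1.22 for Cd226. It was 2.15 for Cd27, 2.19 for Cd48, 2.24 for Cd96, 2.26 for Cd2 and 2.52 for Slamf6, where the median over genes of like mean was 1.52 to 1.84. All 9 values lay within the 5% to 95% range of those genes. The 4 genes that passed between populations had values below the medians. A small spread within groups makes any gene easier to call, and its part in these 4 calls was not tested. Cd48 in CD4+ EE samples spread from 12.9 to 50.2, with replicates 1 and 6 at 25.2 and 12.9 and the others at or above 41.2.

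Among 2727 genes with a mean above 10, those whose log2 values followed a member most closely over the 21 samples were listed, 2 for each member with such a mean, as a description, since all points share the library and its depth and the 2 populations. For Cd28 they were Cd5 (r = 0.895) and Cd4 (r = 0.890), and for Cd40lg they were Cd4 (r = 0.971) and Tspan32 (r = 0.959). For Slamf6 they were Psmb3 (r = 0.781), a proteasome subunit, and Il21r (r = 0.740), the receptor of interleukin 21. Il21r had a mean normalized count of 25.4 and 25.9 in CD4+ and CD8+ EE samples and 19.7 and 18.6 in the SE samples. It was picked by its r with Slamf6 over these same samples, so its group means follow those of Slamf6 by choice. They are no separate result on housing. For Cd96 they were Mri1 (r = 0.773) and Emc7 (r = 0.737), for Cd48 Esyt1 (r = 0.750) and Clpp (r = 0.710), for Cd27 Mrps15 (r = 0.710) and Trip12 (r = 0.646), and for Cd2 Tmem59 (r = 0.707) and Atp6v1g1 (r = 0.633).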

How the data were processed

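RNA of CD4+ and CD8+ T cells sorted by flow cytometry was measured in 21 samples. According to the paper's methods and the submitters' processing notes, the authors trimmed reads with cutadapt, aligned them with STAR 2.4.0a to mm10, counted unique molecules on Ensembl GRCm38 genes with the Drop-seq tools, filtered low-abundance genes and normalized with DESeq2. The deposited signal is therefore a molecule count divided by a size factor. Dividing each column by its smallest positive value gave whole molecules for 100% of values (tolerance 0.0001).

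Groups came from the sample labels. EE and SE samples with the same number are different mice, while within an environment a number marks 1 mouse in both populations, the source of the pairing. Deviations from group means of same-mouse samples correlated by -0.015 to 0.035. The 46 pairs of samples of one group differed by more than sampling noise (chi-square per degree of freedom 1.52 to 2.21). limma 3.58.1 in R 4.3.3 (trend) was fitted on log2(value + 1) over all genes with a mean above 2, with Benjamini-Hochberg adjustment at 0.05 and 95% intervals. Alternatives were a pseudocount of 0.5, no filter, a mean above 10, the same total per sample, a replicate block, 1 fit of all samples, each environment alone, each sample left out, and edgeR 4.0.16 and DESeq2 1.42.0 on the recovered molecules. Fits were also run on simulated data with a single dispersion for all genes, no pairing by mouse and changes only in genes with a mean above 10. Those runs do not cover changes in genes of lower mean, such as Btla and Cd226. Named genes were the 9 members, genes of the related lists past the threshold, population markers and the 2 genes most correlated with a member whose mean was above 10. Members and lists were chosen with earlier results of these data known. Positions come from GENCODE M21 on GRCm38 and promoter windows from RefSeq GRCm38.p6. The remaining steps used Python 3.11.15, SciPy 1.17.1, NumPy 2.4.6, Matplotlib 3.10.9 and pandas 2.3.3.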

Additional observations from a re-analysis of the deposited data

Results flagged for a closer look

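In 3 of 36 groups of samples tested for a value far from the others, 1 sample stood apart, where chance flags about 1 in 20 groups, or 1.8 of the 36. Cd28 in CD8+ SE replicate 1 was at 29.1 (34 molecules), with the other 3 samples of the group at 16.3 to 17.7. Cd27 in CD8+ EE replicate 6, a library of high red-cell RNA, was at 88.5 (103 molecules), with the others at 62.3 to 67.7. Cd40lg in CD8+ SE replicate 2 was at 0.931, which is 1 molecule, with the others at 0. Where all other samples hold 0, any single molecule is flagged, so the chance rate above does not apply to that group.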

How the results depend on the processing

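The calls of Cd28, Cd40lg, Btla and Cd226 between CD4+ and CD8+ cells held in edgeR, in DESeq2, with the replicate block by mouse (4 of the 9 genes), without the 2 libraries of high red-cell RNA and without any 1 sample (4 in each). Over all genes 311 passed with the replicate block and 349 without it, and the block changed no member's call. With a mean above 10, 2 of the 9 genes were called, since Cd226 and Btla were under that mean, and the count over all genes was 216 (99 higher and 117 lower in CD4+). EE samples alone gave 227 genes and SE samples alone 105, fewer samples being tested. Cd28 in SE samples alone (0.84, adjusted p = 0.0559 in limma) and Btla in EE samples alone (1.296, adjusted p = 0.0998 in limma) missed the threshold.

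Between EE and SE, 0 of the 9 genes were called under every alternative run. Over all genes in CD4+ samples the count of 1 became 0 at a mean above 10, at the pseudocount of 0.5, in the replicate block by number and in the fit of all 21 samples, 3 without a filter, 2 in edgeR, and 0 to 3 without any 1 sample. In CD8+ samples the count of 0 became 3 without a filter, 2 in the replicate block by number, and 0 to 3 without any 1 sample. The same numbers in EE and SE mark different mice, so that this block pairs nothing but a number (mean correlation 0.0083 in CD4+ and 0.0052 in CD8+ samples).

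Of 851 recomputed log2 differences of the 9 genes, 34 changed sign and 2 missed the threshold. None of the 34 belonged to a called value, and the cause was not tested. For EE minus SE in CD4+ samples, Cd48 was 0.0019 in edgeR and 0.010 in DESeq2 and -0.23 to 0.15 without any 1 sample, and Cd226 was -0.022 to 0.38 without any 1 sample. In CD8+ samples Cd28 was -0.22 to 0.043 without any 1 sample. There Cd48 was -0.00897 with the same total, -0.073 in the replicate block and -0.061 to 0.076 without any 1 sample, and Btla was 0.024 in edgeR, 0.0094 in DESeq2 and -0.26 to 0.031 without any 1 sample, in 6 fits in which its mean stayed above 2. For the interaction, Cd48 was 0.0080 in edgeR, 0.00300 in DESeq2 and -0.23 to 0.15 without any 1 sample, and Slamf6 was -0.29 to 0.077 without any 1 sample. Between CD4+ and CD8+ cells, Cd2 was -0.033 and Slamf6 0.0027 in SE samples alone, Cd27 was 0.060 in EE samples alone, Slamf6 was 0.059 without the 2 libraries of high red-cell RNA and -0.13 to 0.056 without any 1 sample, and Cd48 was -0.18 to 0.0047 without any 1 sample. Apart from these, the same-mouse r of Slamf6 was -0.16 on untransformed values. Genes under about 3 molecules in a group, such as Cd226 in CD4+ and Btla and Cd40lg in CD8+ samples, are limited by depth.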
